A study of Mus musculus with 6 samples.

Results

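The replication licensing genes described here are the 10 mouse genes Mcm2, Mcm3, Mcm4, Mcm5, Mcm6, Mcm7, Mcm10, Cdt1, Cdc6 and Gmnn, out of 21887 protein-coding genes. Open chromatin was mapped by ATAC-seq, a method in which the Tn5 transposase inserts sequencing adapters into accessible DNA. All called peaks that overlapped a gene or 20 kb either side of it were read from 6 deposited peak lists. The samples were CGR8 mouse embryonic stem cells named mito, LM and eG1-1, with 2 lists each. The labels leave these names unexplained; the series title speaks of mitotic exit, so they were read as successive stages from mitosis to early G1. The peaks of both LM lists carry the name Telo. The titles give N2B27, the medium described for the line that the design text calls Cdt1-MD, so all 3 groups were taken to be that line. It was grown untreated in N2B27 medium with the GSK3 inhibitor CHIR99021, the MEK inhibitor PD184352 and leukemia inhibitory factor. Whether the line's name marks a transgene that holds Cdt1 sequence is not stated in the labels, and its part in the peaks at Cdt1 was not tested. The labels do not say whether replicates were separate cultures, and the titles and the protocol differ on the number of cells per sample.

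Licensing is the loading of the Mcm2 to Mcm7 helicase onto DNA, which starts as cells leave mitosis and ends before S phase. The origin recognition complex, Cdc6 and Cdt1 load the helicase, geminin (encoded by Gmnn) blocks Cdt1, and Mcm10 helps to switch the loaded helicase on. Embryonic stem cells have a short G1 phase in which this loading must take place, and many of these genes are known targets of E2F transcription factors.

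Peaks numbered 24598 and 30446 in the mito lists, 23867 and 20639 in the LM lists, and 32101 and 48396 in the eG1-1 lists. Scores are whole numbers whose scale is not stated, and they may not be comparable between lists. Read depth is unknown, so a missing peak means that none was called. The peak names carry 1 code in all replicate 1 lists and another in all replicate 2 lists. The labels do not explain the codes. Of 10 embryonic stem cell marker genes, 9 and 7 had a peak at a gene end in the mito lists, 6 and 4 in the LM lists, and 3 and 7 in the eG1-1 lists, and Esrrb had none in any list. Of 6 fibroblast markers, 1 and 3 had one in the mito lists, 2 and 2 in the LM lists, and 2 and 4 in the eG1-1 lists, with none in any list at Pdgfra and Prrx1. Of 6 markers of differentiated lineages, LM replicate 1 held 2 and the other lists 0. The licensing genes were chosen by the peak calls and scores that these same lists hold at their ends, so their values are descriptions and none was tested.

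The promoters of 6 genes are shown in RefSeq sequence (GRCm38.p6, the assembly of mm10), because their peaks differ in how many lists held them. Each runs 5′ to 3′ from 250 bases before the start site to 50 after it. Capitals mark the E2F words TTCCCGC and TTGGCGC and the NF-Y word CCAAT, on either strand. The first is Mcm2 (chr6:88898731-88899030, minus strand), held by no eG1-1 list. Next are Mcm3 (chr1:20820263-20820562, minus strand) and Cdt1 (chr8:122567765-122568064, plus strand), each lacking a peak in 1 list. The others had a peak at the gene end in all 6 lists: Mcm5 (chr8:75109259-75109558, plus strand), Mcm6 (chr1:128359656-128359955, minus strand) and Cdc6 (chr11:98907901-98908200, plus strand).
Mcm2: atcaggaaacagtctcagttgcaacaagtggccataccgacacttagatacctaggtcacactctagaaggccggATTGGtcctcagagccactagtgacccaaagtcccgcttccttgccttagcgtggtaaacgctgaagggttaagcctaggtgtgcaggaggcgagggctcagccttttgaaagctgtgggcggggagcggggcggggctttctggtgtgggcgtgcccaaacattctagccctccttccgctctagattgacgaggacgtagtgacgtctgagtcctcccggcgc
Mcm3: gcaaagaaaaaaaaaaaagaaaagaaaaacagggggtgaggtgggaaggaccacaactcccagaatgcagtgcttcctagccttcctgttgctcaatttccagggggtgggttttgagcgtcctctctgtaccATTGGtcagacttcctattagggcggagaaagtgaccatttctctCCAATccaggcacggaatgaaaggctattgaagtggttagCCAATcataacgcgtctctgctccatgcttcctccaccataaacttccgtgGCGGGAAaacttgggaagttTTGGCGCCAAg
Cdt1: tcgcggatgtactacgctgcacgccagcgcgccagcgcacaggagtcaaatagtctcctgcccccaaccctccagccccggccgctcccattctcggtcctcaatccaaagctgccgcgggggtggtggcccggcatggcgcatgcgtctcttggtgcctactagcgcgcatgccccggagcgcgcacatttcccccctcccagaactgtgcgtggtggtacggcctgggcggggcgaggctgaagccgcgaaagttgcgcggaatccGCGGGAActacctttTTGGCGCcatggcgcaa
Mcm5: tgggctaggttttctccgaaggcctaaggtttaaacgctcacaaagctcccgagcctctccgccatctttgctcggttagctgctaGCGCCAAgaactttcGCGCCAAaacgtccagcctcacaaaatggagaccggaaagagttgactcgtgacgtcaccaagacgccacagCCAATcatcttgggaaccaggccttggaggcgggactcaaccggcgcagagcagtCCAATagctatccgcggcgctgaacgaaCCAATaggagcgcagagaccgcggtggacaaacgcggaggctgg
Mcm6: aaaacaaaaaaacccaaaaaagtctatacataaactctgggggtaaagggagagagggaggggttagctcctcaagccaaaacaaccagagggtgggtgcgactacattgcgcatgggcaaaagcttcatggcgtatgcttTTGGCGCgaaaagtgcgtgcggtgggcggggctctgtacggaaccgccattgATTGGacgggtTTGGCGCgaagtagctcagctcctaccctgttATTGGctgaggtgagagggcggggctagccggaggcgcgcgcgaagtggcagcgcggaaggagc
Cdc6: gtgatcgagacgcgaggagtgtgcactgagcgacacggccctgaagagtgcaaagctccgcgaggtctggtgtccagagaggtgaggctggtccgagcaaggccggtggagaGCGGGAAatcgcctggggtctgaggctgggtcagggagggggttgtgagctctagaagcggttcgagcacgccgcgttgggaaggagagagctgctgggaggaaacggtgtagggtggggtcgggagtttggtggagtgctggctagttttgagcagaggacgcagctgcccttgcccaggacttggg

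E2F words were present in the promoters of 6 of the 8 genes with a RefSeq promoter entry, against 6.81% of all 32851 promoters and 13.9% of the 4723 coding promoters that had a peak in all 6 lists. The genes were Mcm3, Mcm5, Mcm6, Mcm7, Cdt1 and Cdc6. In Mcm3 the run TTGGCGCCAA holds the second word on both strands, so that its 3 matches include an overlapping pair. Mcm2 and Mcm10 held neither word. The NF-Y word was found in 6 of 8 promoters (37.4% of all, 52.8% of those with a peak in all lists) and was not found in Cdt1 or Cdc6. In a promoter of Mcm7 a CCAAT match overlaps an E2F match. The Sp/Klf word GGGCGG was present in 6 of 8, against 35.7% of all promoters and 71.5% of those with a peak in all lists. The CHR words TTTGAA and TTCGAA are elements of genes expressed late in the cell cycle. They were found in Mcm2 and Mcm7, against 19.2% of all promoters and 13.1% of those with a peak in all lists. The Ets word CCGGAAG was found in Mcm10 (8.86% and 22.6% in the same order) and the Creb word TGACGTCA in Mcm5 (1.79% and 4.28%). The octamer ATGCAAAT (1.74% and 1.63%) and the Nrf1 motif (0.971% and 2.6%) were in none of the 8. The G and C content of the licensing promoters ranged from 48.7% in Mcm3 to 66.7% in Cdt1, and CpG dinucleotides from 8 in Mcm3 to 32 in Cdt1. The median over all promoters was 52.7% and 7, and over coding promoters with a peak in all lists 61.3% and 21. A word match describes these letters and is not a binding site.

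A peak within 1 kb of a gene end, here called a gene-boundary peak, was present in all 6 lists at 7 of the 10 genes: Mcm4, Mcm5, Mcm6, Mcm7, Mcm10, Cdc6 and Gmnn. Over all protein-coding genes 27.8% had one in all 6 lists. The 3 exceptions differed. Mcm2 lacked a peak in both eG1-1 lists, Mcm3 lacked one in LM replicate 2, and Cdt1 lacked one in eG1-1 replicate 1. By group, 10 genes had a boundary peak in each mito list, 10 and 9 in the LM lists, and 8 and 9 in the eG1-1 lists. The mean per list was 10 ± 0 for mito, 9.5 ± 0.707 for LM and 8.5 ± 0.707 for eG1-1 (SD over 2 lists). Among all protein-coding genes, a boundary peak was found at 46.6% and 50.4% in the mito lists, 47.4% and 35.7% in the LM lists, and 42.1% and 52.7% in the eG1-1 lists, so the groups stood in another order. At a score of at least 50, 5 of the 10 genes had a boundary peak in all 6 lists, since Mcm4 (47 in eG1-1 replicate 1) and Gmnn (43 in mito replicate 2) each lost a peak.

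**Figure D1:**
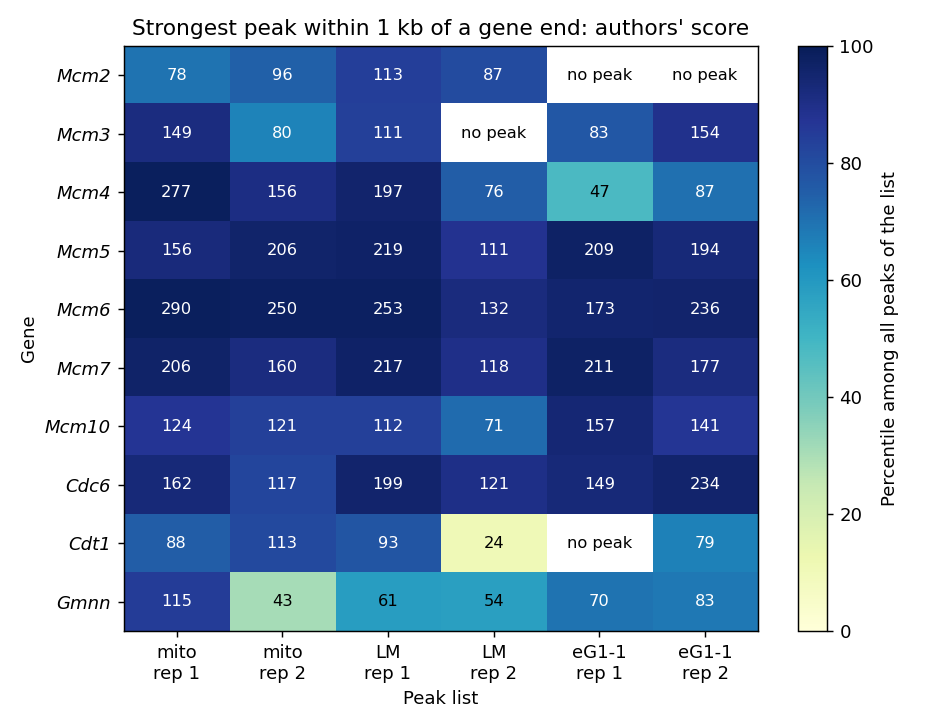
Authors' peak score at the ends of the 10 licensing genes (rows) in the 6 lists (columns), as printed numbers, with colour for the percentile among all peaks of the same list. Mcm2 has no peak in either eG1-1 list, while Mcm5, Mcm6, Mcm7, Mcm10 and Cdc6 lie above the 70th percentile in every list.

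Mcm2, a subunit of the helicase that also binds histones, had peak scores of 78 and 96 in mito and 113 and 87 in LM. No peak was called there in eG1-1 replicate 1 or 2. These lists were the longest, and 42.1% and 52.7% of all protein-coding genes had a boundary peak in them. In the mito lists the shares were 46.6% and 50.4%. The reason for the missing peak was not tested. In the 4 lists that held it the peak lay between the 69.6th and the 84.1st percentile of its list. The region was chr6:88898485-88898949 (mm10, as all coordinates here) and covered the start site. The peaks measured 443 and 418 bp in mito, 341 and 229 bp in LM, and they covered between 114 and 219 of the 300 promoter bases printed above.

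Beside it, the start of Tpra1, which lies 3470 bp from Mcm2, was held by both eG1-1 lists. Tpra1 scored 65 and 101 in mito, 141 in LM replicate 1, and 80 and 90 in eG1-1, with no peak in LM replicate 2. A second region inside Tpra1 (chr6:88906647-88907019) scored 30 in mito replicate 2, 104 in LM replicate 2, and 66 and 71 in eG1-1. The missing eG1-1 peak at Mcm2 thus stood next to peaks that the same lists held. Within Mcm2 itself, eG1-1 replicate 1 had 1 further peak, with a score of 39, centred 4851 bp downstream of the start.

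The pattern of Mcm2, held in both mito and both LM lists and in neither eG1-1 list, was shared by 64 other protein-coding genes. With Mcm2 they made up 0.297% of all protein-coding genes. By the summed difference in percentile rank over those 4 lists, the nearest was Xpot (23.4), a tRNA exporter gene, with scores of 93 and 99 in mito and 91 and 73 in LM. Next came Nudt9 (40.7), 1110038F14Rik (40.9), Lmtk2 (50.6) and Zfp335 (53.3).

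Mcm3, another helicase subunit, had scores of 149 and 80 in mito, 111 in LM replicate 1, and 83 and 154 in eG1-1. LM replicate 2, the shortest list, held none. The region was chr1:20819950-20820725. The eG1-1 peaks both ended 71 bp downstream of the start, against 290 and 189 bp in mito and 362 bp in LM replicate 1. Missing in LM replicate 2 alone was a frequent state, found at 1089 other protein-coding genes. The nearest of these in rank were Pi4ka and Snap29, which share 1 peak (summed difference 16.5), Gpalpp1 and Nufip1, which also share 1 (21.3), and Terf1 (21.9).

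Mcm4 had scores of 277 and 156 in the mito lists, 197 and 76 in the LM lists, and 47 and 87 in the eG1-1 lists. Both eG1-1 scores were below both mito scores, and the LM scores overlapped those of both other groups. Its peak lay at chr16:15637112-15638113, between Mcm4 and Prkdc, a DNA repair kinase gene whose annotated end is 43 bp away. The peak belongs to both genes and cannot be assigned to one. Among the licensing genes of the same list, Mcm4 ranked 2 and 4 in the mito lists, 5 and 6 in the LM lists, and 8 and 7 in the eG1-1 lists. It was the weakest of the 8 genes with a peak in eG1-1 replicate 1 and the third weakest of 9 in eG1-1 replicate 2.

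Mcm5 scored 156 and 206 in the mito lists, 219 and 111 in the LM lists, and 209 and 194 in the eG1-1 lists. The groups overlapped. Its region was chr8:75108461-75109961, at the start of the gene, and it ranked between 2 and 5 among the licensing genes in every list. The peak split into 2 in LM replicate 2 (scores 21 and 111) and in eG1-1 replicate 1 (23 and 209), and was 1 peak of 1122 to 1384 bp in the other lists. Mcm6 had 290 and 250 in the mito lists, 253 and 132 in the LM lists, and 173 and 236 in the eG1-1 lists. Both mito scores were above both eG1-1 scores, and LM overlapped both. The region was chr1:128358982-128360347, at the start of this further helicase subunit gene. It was the strongest licensing gene in every list except eG1-1 replicate 1, where it ranked 3. The Mcm6 peak in eG1-1 replicate 2 lay wholly upstream of the start site, whereas the other 5 peaks crossed it.

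Mcm7 had scores of 206 and 160 in the mito lists, 217 and 118 in the LM lists, and 211 and 177 in the eG1-1 lists. The groups overlapped, and the region was chr5:138171055-138172499. The start of this helicase subunit gene overlaps that of Ap4m1, an adaptor complex gene, so this peak also serves both. RefSeq gives Mcm7 a pair of promoters. Peaks of both mito lists and LM replicate 1 spanned both, those of LM replicate 2 and eG1-1 replicate 1 reached the upstream promoter alone, and eG1-1 replicate 2 had a separate peak (score 30) on the downstream one. The miRNA genes Mir25, Mir93 and Mir106b, which lie inside Mcm7, had no peak over them in any list.

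Mcm10, the factor that helps activate the helicase, had scores of 124 and 121 in the mito lists, 112 and 71 in the LM lists, and 157 and 141 in the eG1-1 lists. Its region was chr2:5012116-5013240. As deposited, both eG1-1 scores were above the other 4, and that of LM replicate 2 was the lowest. The order did not hold for percentiles within each list, where eG1-1 replicate 2 (86.9) lay below mito replicate 1 (87.2).

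Cdc6, a loader of the helicase, scored 162 and 117 in the mito lists, 199 and 121 in the LM lists, and 149 and 234 in the eG1-1 lists. The groups overlapped. Its peaks, in the region chr11:98907388-98908307, lay mostly upstream of the RefSeq start site. The peak of eG1-1 replicate 1, 248 bp wide, thus covered the gene end but did not reach the promoter window shown above.

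Cdt1, the partner of Cdc6 in loading, had scores of 88 and 113 in mito, 93 and 24 in LM, and 79 in eG1-1 replicate 2. No peak was called in eG1-1 replicate 1. LM replicate 2 held it at the 10.9th percentile of its list. The region was chr8:122567205-122568163. With a score of at least 50, LM replicate 2 also lacked the peak. Around Cdt1, eG1-1 replicate 1 also lacked a peak at the end of Aprt, a purine salvage gene 1506 bp away, which scored 51 and 143 in the mito lists, 92 and 104 in the LM lists, and 262 in eG1-1 replicate 2. The region of the Aprt peaks also lies within 1 kb of the near end of Galns, a lysosomal enzyme gene 5106 bp from Cdt1. Galns had a boundary peak in every list (399 and 473 in mito, 396 and 250 in LM, 294 and 453 in eG1-1). No peak in the Cdt1 window had these scores, so they belong to the far end of Galns, outside the window. The presence of Cdt1 over the lists was shared by 484 other protein-coding genes. Of these, Bcam (31.0) and Gtpbp4 (31.7) were nearest in rank, followed by Wfdc21 (34.3) and by Nfs1 and Romo1, which share 1 peak (35.1).

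Gmnn, the Cdt1 inhibitor, had scores of 115 and 43 in the mito lists, 61 and 54 in the LM lists, and 70 and 83 in the eG1-1 lists. The groups overlapped, and Gmnn was the weakest of the 10 in mito replicate 2 and in LM replicate 1. The region was chr13:24761207-24762419, at the higher-coordinate end of the gene. It split into 2 peaks in LM replicate 2 and in eG1-1 replicate 2.

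**Figure D2:**
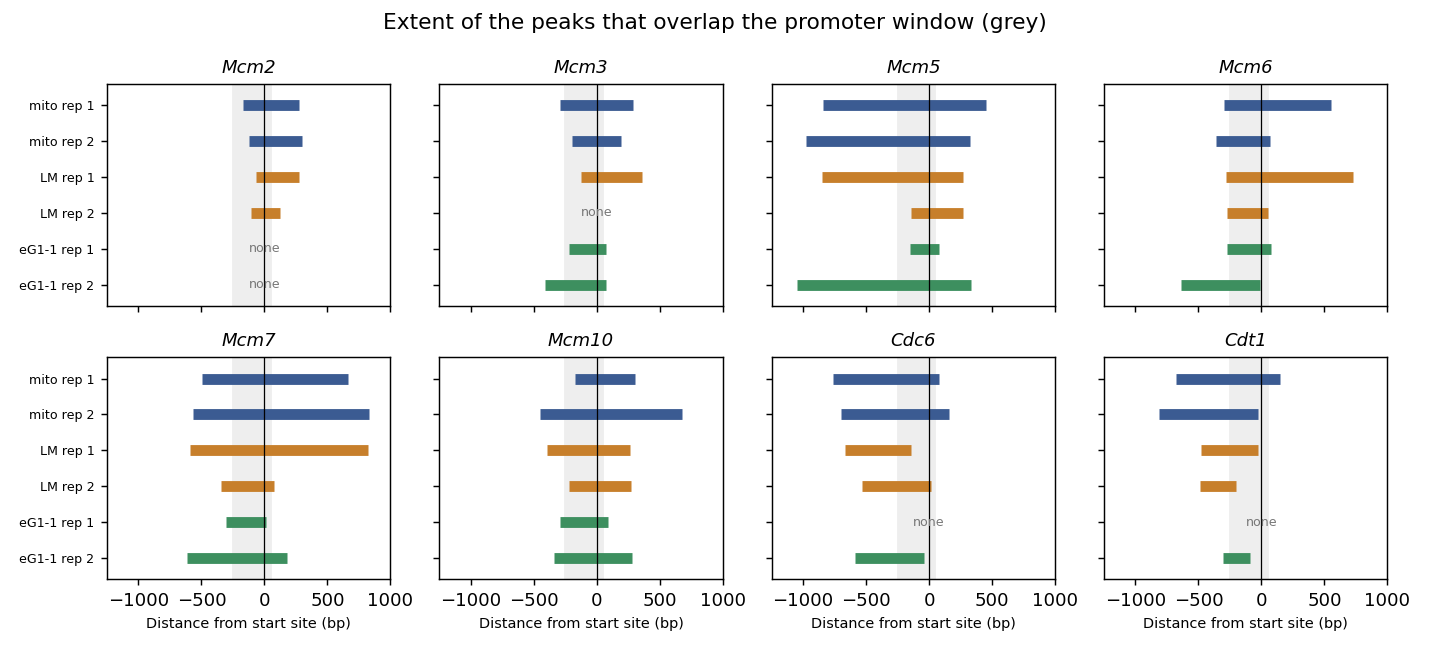
Extent in bp of each list's peaks that overlap the promoter window (grey) of the 8 licensing genes with a RefSeq promoter entry, relative to the start site, coloured by group. For Mcm7 the upstream promoter is drawn. Mcm2 has no bar in eG1-1, Mcm3 none in LM replicate 2, and Cdt1 and Cdc6 none in eG1-1 replicate 1. The Cdc6 peak of eG1-1 replicate 1 lies at the annotated gene end, outside the window.

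Counted over the promoter window alone, 8 and 8 of the 8 genes had a peak in the mito lists, 8 and 7 in the LM lists, and 5 and 7 in the eG1-1 lists. Cdc6 is not counted in eG1-1 replicate 1, where its peak lies at the gene end outside this window. Over all 17492 protein-coding genes with a promoter entry the shares were 42.5% and 45.0%, 43.4% and 31.8%, and 37.1% and 45.1% in the same order. Mcm5, Mcm6, Mcm7 and Mcm10 held a promoter peak in all 6 lists, as did 24.6% of all these genes. Genes with a promoter peak in both mito and both LM lists and in neither eG1-1 list, as at Mcm2, made up 0.326% of them.

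Peaks at the gene starts, or at the higher-coordinate end for Mcm4 and Gmnn, whose start sites are not given here, had a larger median width than all peaks in 5 lists. Their median width was 845.5 and 857 bp in the mito lists, 728 and 416 bp in the LM lists, and 334.5 and 614 bp in the eG1-1 lists. The median over all peaks of the same lists was 456 and 503, 459 and 336, and 340 and 410 bp. All peaks include those away from gene ends. The widths of gene-end peaks at other genes were not measured, so these values do not set the licensing genes apart from them. In eG1-1 replicate 1 the licensing genes were thus no wider than the list, and 2 lists, LM replicate 2 and eG1-1 replicate 1, gave the narrowest peaks on both measures.

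Their scores, by which the genes were chosen, stood high within each list. The median percentile of the licensing genes with a boundary peak was 91.9 and 83.0 in the mito lists, 89.8 and 80.3 in the LM lists, and 93.4 and 88.9 in the eG1-1 lists. All protein-coding genes with a boundary peak had medians of 70.7 and 73.2, 70.7 and 70.0, and 71.9 and 75.3. Medians of other replication genes were not taken, so these ranks do not set the licensing genes apart from them. Ranks from lists of different length cannot be used to show a change between groups.

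**Figure D3:**
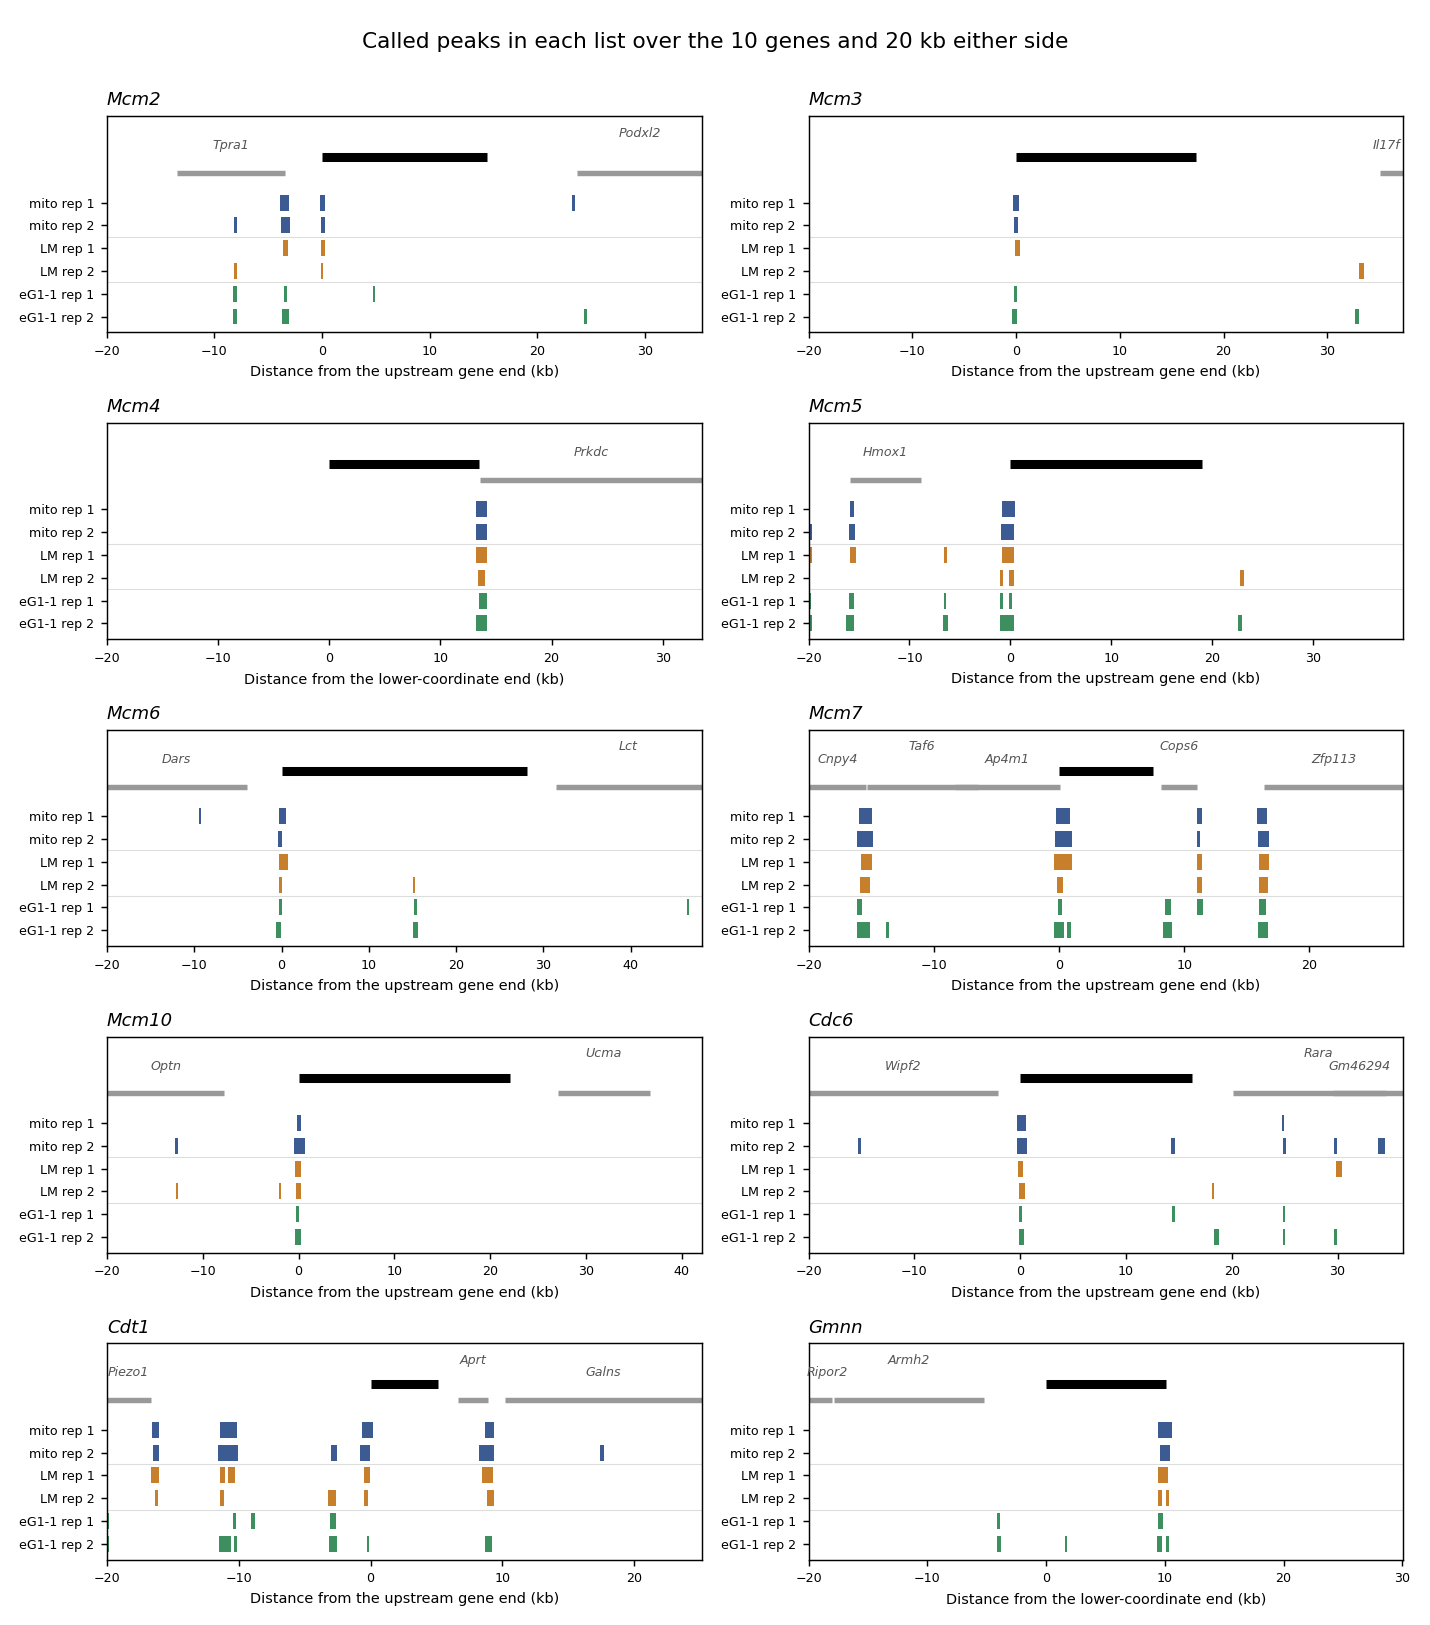
Called peaks (coloured bars, drawn to scale) in the 6 lists over each licensing gene (black) and 20 kb either side, with other coding genes in grey and distance in kb along the gene. Distances run from the upstream end in the direction of transcription, and from the lower-coordinate end for Mcm4 and Gmnn. The gene-end peaks recur down the lists, while most other peaks appear in few.

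Over the 10 windows the peaks of the 6 lists, joined where they overlapped, made 47 regions out of 65324 in the genome. The windows held 21 and 28 regions in the mito lists, 21 and 23 in the LM lists, and 27 and 31 in the eG1-1 lists. The number per gene ran from 1 at Mcm4 to 8 at Cdt1 and Cdc6, with a median of 4.5 against 3 over all protein-coding genes. At least 1 region with a peak in all 6 lists was present in 8 windows, that is, in all but those of Mcm2 and Mcm3, and in 50.5% of the windows of all protein-coding genes. A pair of regions crossed the 20 kb limit, at Cdt1, starting 19828 bp from the gene (49 and 40 in eG1-1), and at Mcm5, starting 19679 bp away (46 in mito replicate 2, 31 in LM replicate 1, 80 and 85 in eG1-1). The outermost region wholly inside it lay 18267 bp from Mcm6 (20 in eG1-1 replicate 1). Just outside it were a region 21870 bp from Mcm7 (45 and 74 in mito, 63 in LM replicate 1, 20 in eG1-1 replicate 2) and one 22083 bp from Mcm2 (64 in mito replicate 1, 77 and 61 in LM, 90 and 143 in eG1-1).

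The regions were then sorted by position. Of 11 regions at an end of the licensing genes themselves, 7 had a peak in all 6 lists and 0 in a single list. Of 11 at the end of another coding gene, 2 were in all lists and 3 in a single list. Of the 25 elsewhere, 1 was in all lists and 13 were in a single list. Over the whole genome 15.5% of regions had a peak in all 6 lists, 34.2% of those at gene ends and 9.80% of those elsewhere. In the licensing windows the shares were 40.9% of 22 and 4.00% of 25. Regions in a single list made up 13.6% of those at gene ends and 52% of those elsewhere in the windows, against 22% and 48.6% over the genome. The exception elsewhere was chr8:122556442-122557971 in the lncRNA gene Gm34847 beside Cdt1, with highest scores of 66 and 150 in the mito lists, 74 and 46 in the LM lists, and 41 and 85 in the eG1-1 lists.

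**Figure D4:**
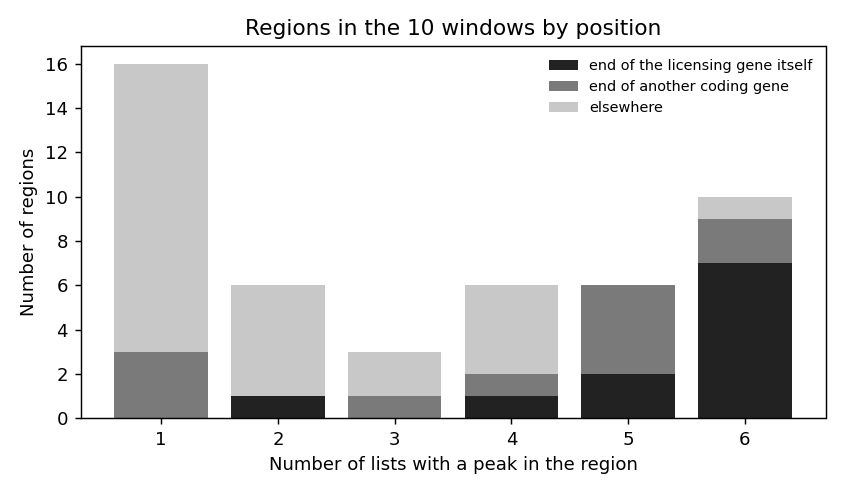
Number of regions in the 10 windows (y axis) by the number of lists with a peak in them (x axis), split by position. The 7 regions at licensing gene ends that all 6 lists held stand at the right, and 13 of the 16 regions in a single list lie elsewhere.

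Of the 25 regions away from coding gene ends, 12% and 36% were in the mito lists, 12% and 36% in the LM lists, and 52% and 56% in the eG1-1 lists. Over the 50081 such regions of the genome the shares were 28.3% and 38% for mito, 27.2% and 25.8% for LM, and 44.9% and 71.3% for eG1-1, so the eG1-1 lists held the largest shares there too. Both mito lists held 2 of the 25 regions, both LM lists 1 and both eG1-1 lists 9, against 20.7%, 14.2% and 32.3% over the genome. The eG1-1 lists were also the longest, and the part of list length in these shares was not tested.

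Of the 47 regions, 5 had a peak in both eG1-1 lists and in no mito list, against 8.07% of all regions. Since the same lists chose the genes, the background shares here and below are given for scale, and nothing is read from them. The 5 regions lay upstream of Mcm5 (chr8:75102826-75103299), inside Mcm6 (chr1:128344045-128344674), near the 3′ end of Mcm7 inside Cops6 (chr5:138163079-138163761), upstream of Cdt1 inside Piezo1 (chr8:122547909-122548186) and 3825 bp from Gmnn (chr13:24747679-24748019). The region inside Mcm6 scored 79 and 85 in eG1-1 and 80 in LM replicate 2, and the one near Mcm7 scored 63 and 74 in eG1-1 with no peak in mito or LM. The other 3 were weaker, with 18 and 26 at Mcm5, 49 and 40 at Cdt1, and 17 and 54 at Gmnn in the eG1-1 lists. Another 2 had a peak in both mito lists and in no eG1-1 list, against 1.85% of all regions: the start of Mcm2 and an end of Piezo1 in the Cdt1 window (chr8:122551325-122551989). That region of Piezo1, a mechanically gated channel gene, had scores of 124 and 142 in the mito lists, and of 96 and 16 in the LM lists. At gene boundaries, 0 of the 10 genes had a peak in both eG1-1 lists and in no mito list (1.61% of all protein-coding genes) and 1, Mcm2, the other way (1.97%). Single lists moved these counts. The 5 regions became 8 when mito replicate 2 was left out, 11 when eG1-1 replicate 1 was, and 8 when eG1-1 replicate 2 was. The 2 regions became 6 and 4 when mito replicate 1 and 2 were left out in turn, and 4 when eG1-1 replicate 2 was. Without eG1-1 replicate 2, Cdt1 joined Mcm2, giving 2 genes. When every list was cut to its 20639 highest scores, the 5 regions became 3.

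Against LM, 4 regions had a peak in both eG1-1 lists and in no LM list (9.38% of all regions), in the windows of Mcm7, Cdt1, Cdc6 and Gmnn. The reverse was found at the same 2 regions as above, Mcm2 and Piezo1 (0.459%). The Cdc6 region, chr11:98932451-98932860 inside the retinoic acid receptor gene Rara, had scores of 44 and 66 in the eG1-1 lists, against 26 and 48 in the mito lists. At gene boundaries these counts were 0 of 10 (2.35% of all protein-coding genes) and 1, Mcm2 (0.48%). The 4 regions became 9 when LM replicate 1 was left out and 7 when LM replicate 2 was. They became 9 without eG1-1 replicate 1 and 8 without its replicate 2. The 2 regions became 6 without LM replicate 1 and 4 without eG1-1 replicate 2, and 0 when a list had to cover at least 50% of a region. The boundary counts became 1 for eG1-1 and not LM without LM replicate 1 (Mcm3), and 2 for LM and not eG1-1 without eG1-1 replicate 2.

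Between LM and mito, a peak in both LM lists and in no mito list was found at 0 regions (0.905% of all regions) and 0 gene boundaries (0.356% of all protein-coding genes). The reverse was found at 1 region (3.56%), the same Rara region, and at 0 gene boundaries (2.17%). Without LM replicate 1 and 2 the first count became 5 and 1. The second became 5 and 3 without mito replicate 1 and 2, and 4 without LM replicate 1, when Mcm3 gave 1 gene as well.

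**Figure D5:**
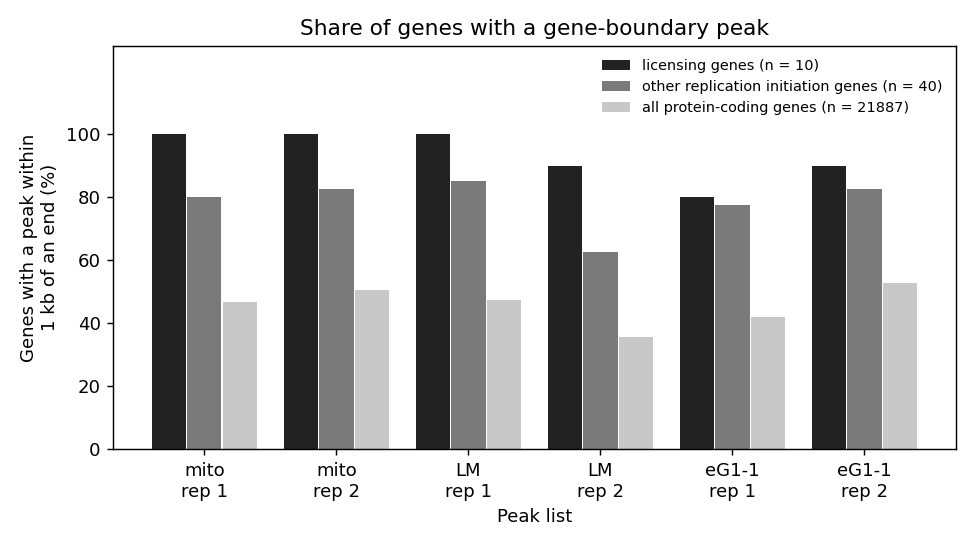
Share of genes with a gene-boundary peak (%, y axis) in each list for the 10 licensing genes, 40 other replication initiation genes and all 21887 protein-coding genes. The licensing genes stand between 80% and 100%, and all protein-coding genes between 35.7% and 52.7%.

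Other genes of replication initiation served as a comparison, from a list of 40, all of which were found in the annotation. Of these, 32 and 33 had a boundary peak in the mito lists, 34 and 25 in the LM lists, and 31 and 33 in the eG1-1 lists. In all 6 lists 22 of 40 had one, as did 7 of the 10 licensing genes. None of the 40 was held by both lists of one group and neither list of another, in any of the 3 pairs of groups. LM replicate 2, the shortest list, had a boundary peak at 35.7% of all 21887 protein-coding genes. It alone lacked one at Mcm3 and 1089 others of them. Of the 40 genes, 5 were in this state: Orc3 and Orc5, subunits of the origin recognition complex, the kinase gene Cdc7, the fork protein gene Donson and the polymerase gene Pola1. Their scores elsewhere ran from 26 at Pola1 in eG1-1 replicate 2 to 139 at Orc3 in mito replicate 2.

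Among the origin recognition genes, Orc2 and Orc6 had a boundary peak in all 6 lists and Orc1 and Orc4 in none. All peaks in this paragraph are boundary peaks, and peaks farther inside these genes were not counted. Orc6 scored 329 and 438 in the mito lists, 285 and 212 in the LM lists, and 427 and 501 in the eG1-1 lists. All 4 Gins genes, which encode a complex that joins the helicase at activation, had a peak in all 6 lists. Gins2 had the highest scores of the 40 genes in all 6 lists, with 487 and 543 in the mito lists, 529 and 351 in the LM lists, and 570 and 1004 in the eG1-1 lists. Cdc45, the third component of the active helicase, scored 191 and 192 in the mito lists, 115 and 159 in the LM lists, and 130 and 261 in the eG1-1 lists. The activating kinase subunit gene Dbf4 had a peak in mito replicate 1 alone (22). Dtl, which targets Cdt1 for destruction, scored 189 and 197 in the mito lists, 180 and 135 in the LM lists, and 79 and 148 in the eG1-1 lists, while Skp2, which does so by another ligase, had a peak in eG1-1 replicate 2 alone (14). The transcription factor genes E2f1 and E2f3 had a boundary peak in all 6 lists, and E2f2 in the replicate 2 lists alone (45 in mito, 31 in LM, 54 in eG1-1). Pole (111 in mito, 135 in LM, 126 in eG1-1) and Wdhd1 (39, 59 and 13) had one in the replicate 1 lists alone. At these genes presence followed the replicate number and not the group, and the reason was not tested.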

How the data were processed

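ATAC-seq peak lists of 6 samples were used, 2 for each of mito, LM and eG1-1. Per the peak names, the authors called peaks per sample on paired-end fragments. Tools listed, per the submitters' processing notes and without roles, are MACS2 2.2.4, bedtools, deepTools 3.5.1, SAMtools 1.10, STAR 2.7.0e and Picard, and the builds are mm10 and GRCm38. For the caller's threshold and any Tn5 shift of read ends, the sources used here give nothing. The score of each peak is the authors' deposited value, a whole number of at least 13 whose scaling is not stated. Ranks and percentiles were taken within a list. Where scores of different lists are set side by side, the order is that of the deposited values. Such an order does not show a difference between groups. No counts are given, so depth and counting precision are unknown.

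Peaks sharing 1 bp or more across lists were merged into regions. Gene ends came from a RefSeq table (GRCm38.p6) without strand, and start sites from a RefSeq promoter table, which matched 8 of the 10 genes. A group held a region or gene where both its lists did. The calculations (Python 3.11.15, pandas 2.3.3) were tested on simulated peaks. The members, the gene lists and the rules were chosen with earlier results of these data known. All 10 members are named. Other genes were named by fixed rules: a boundary pattern between groups, or the nearest in rank. The genes singled out among the other replication initiation genes were chosen after their values were seen. Alternatives were a score of at least 50, equal list length, other windows, coverage of at least 50%, and leaving out each list.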

Additional observations from a re-analysis of the deposited data

How the results depend on the processing

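Depth is unknown and limits what an absent peak shows, and the lists differ in length. Of 129 values recomputed for 15 results, 95 kept within 1.5 times of the value reported or, for group means, within 1 SD. No paired analysis was possible because the results come from no test. Read within a replicate number, the genes with a boundary peak in mito, LM and eG1-1 numbered 10, 10 and 8 in replicate 1 and 10, 9 and 9 in replicate 2. Mcm2 kept its 4 peaks and its absence in eG1-1 under each boundary, score, coverage and length setting run.

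The mean number of genes with a boundary peak in mito was 9.5 at equal list length and at a score of at least 50, where Gmnn was lost in mito replicate 2. With 1 list left out it was 10 in mito, 9 to 10 in LM and 8 to 9 in eG1-1. For regions in eG1-1 and not mito, the count was 9 with 50 kb windows and 3 at equal length, and 5 to 11 with 1 list left out. In mito and not eG1-1 it was 1 with 10 kb windows, 4 with coverage of at least 50%, and 3 to 6 with 1 list left out. In eG1-1 and not LM it was 2 at equal length and 2 at a score of at least 50, and 7 to 9 with 1 list left out. In LM and not eG1-1 it was 1 with 10 kb windows, 0 with coverage of at least 50%, and 2 to 6 with 1 list left out. In mito and not LM it was 0 at equal length, 0 at a score of at least 50, 2 with coverage of at least 50%, and 1 to 5 with 1 list left out, and in LM and not mito 0 to 5. Genes with a boundary peak numbered 1 to 2 in mito and not eG1-1, 1 to 2 in LM and not eG1-1, 0 to 1 in eG1-1 and not LM, and 0 to 1 in mito and not LM with 1 list left out. Leaving out a list and changing the window alter what is counted by construction. For the other settings the cause was not tested.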
